A study of Arabidopsis thaliana with 20 samples.

Results

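RNA of meiocytes, the cells that enter meiosis in the anther, was compared between an Arabidopsis thaliana triple mutant and wild type (WT). The comparison rests on 4 of the 20 libraries of the series, chosen by their titles, with 2 libraries of the triple mutant and 2 of WT. The triple mutant, labelled pol2a-1suvh2suvh9, combines the mutation pol2a-1 of the DNA polymerase gene POL2A with mutations of SUVH2 and SUVH9, and WT carries none of them. All meiocytes came from floral buds of stages 9 to 10 of plants grown at 20 °C with 16 h of light, 8 h of darkness and 75% humidity. A replicate was the RNA of 300 to 400 meiocyte masses, 400 to 1000 ng, so each library pools many cells, and the labels do not say how many plants gave them. Meiocytes of pol2a-1, pol2a-2 and suvh2suvh9, 2 libraries each, entered the same fit and are given where they place a value. By title 2 of these groups are pol2a-1 and pol2a-2, but the genotype field reads pol2a-1 for both. Triple mutant and WT seedlings of 20 days, 2 libraries each, served to compare the tissues. Each mutant is represented by 1 combination of alleles.

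POL2A encodes the large, catalytic subunit of the epsilon polymerase, which copies the leading strand at replication forks and takes part in keeping repressive chromatin through replication. SUVH2 and SUVH9 are proteins with an SRA domain that binds methylated DNA. They bring RNA polymerase V to its loci in RNA-directed DNA methylation, the pathway in which small RNAs guide DNA methylation to transposable elements (TEs) and repeats. Loss of the pathway is known to release some silenced loci, while many others stay silent through maintenance methylation. The comparison asks which transcripts differ in meiocytes that carry the mutations of POL2A, SUVH2 and SUVH9.

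The 4 libraries held 16864745 and 20941920 counts in WT and 17245181 and 16935476 in the triple mutant, and the 10 meiocyte libraries ranged from 11932325 to 20941920. Levels below are CPM, counts per 1000000 counts of the library, as replicate 1 and replicate 2, and all means have n = 2. Changes are log2 fold changes ± SE of the triple mutant against WT, and a feature was called at an adjusted p under 0.05 in edgeR's quasi-likelihood test over all genes and TEs. The meiocyte label fitted its markers: DMC1, the meiosis-specific recombinase, stood at 716 and 801 CPM in WT and at 980 and 1029 CPM in the triple mutant. Markers of other tissues were also present. The summed level of 19 tapetum genes, markers of the nurse layer around the meiocytes, was 354 and 336 CPM in WT and 621 and 731 CPM in the triple mutant. That of 18 nuclear photosynthesis genes was 974 and 457 CPM in WT against 2379 and 1341 CPM in the triple mutant. The 7 pollen markers summed to 57.6 and 108 CPM in WT and to 32.2 and 10.6 CPM in the triple mutant. In such bulk samples fewer cells of a type and less RNA per cell cannot be told apart, and the part of these shifts in the results was not tested.

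In triple mutant meiocytes 8 genes rose, 4 genes fell and 1 TE rose. Of the 19739 genes tested, 0.0405% were called higher and 0.0203% lower, and of the 1475 TEs tested 0.0678% were called higher and none lower, in all 13 features or 0.0613%. The genes that rose were PERK13, LTP6, AGP31, ABCA10, THI2.1, AIR12, PSAO and AT3G02640. The genes that fell were the 3 targeted genes and AT1G08270, which overlaps POL2A. At an unadjusted p under 0.05 the test gave 1866 genes higher and 1146 lower, 9.45% and 5.81%, and 75 TEs higher and 76 lower, 5.08% and 5.15%. The DESeq2 Wald test called 426 genes higher and 92 lower, 2.16% and 0.466%, with 17 TEs higher and 9 lower, 1.15% and 0.61%, in all 544 features or 2.56%. The calls of edgeR depend on the spread shared by all meiocyte groups: with the 4 libraries alone, 1 gene was called higher and none lower (2093 and 1081 genes at an unadjusted p under 0.05). That gene, named after its values were seen, was AT5G24240, at 5.46 and 3.68 CPM in WT and 84.3 and 101 CPM in the triple mutant (4.23 ± 0.27, adjusted p = 0.0218, and 0.0637 with 10 libraries). It stood at 29.6 and 31.8 CPM in pol2a-1 and at 74.7 and 8.9 CPM in suvh2suvh9, whose replicates were far apart. Leaving out a library gave from 3 genes higher, without triple mutant replicate 2, to 47, without pol2a-2 replicate 2. More genes were lower than higher without WT replicate 2, 10 against 4, and without triple mutant replicate 1, 17 against 7. With the libraries titled pol2a-2 joined to pol2a-1, as the genotype field reads, PERK13 and PSAO were called higher and SUVH2 and SUVH9 lower. With the trend of fold change with gene length removed, POL2A, LTP6, PSAO, AT3G02640, AIR12 and THI2.1 lost their calls. The median log2 fold change of all tested features was 0.01.

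**Figure D1:**
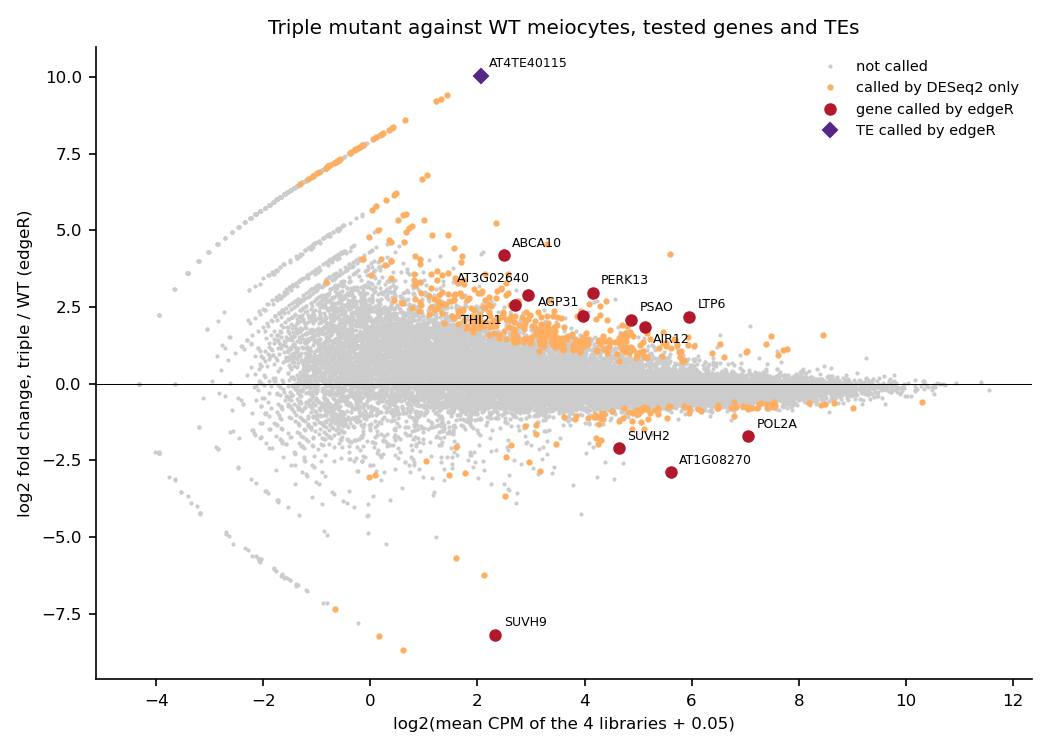
Log2 fold change of the triple mutant against WT (vertical axis) by the mean CPM of the 4 libraries on a log2 scale (horizontal axis), 1 point per tested gene or TE. Red circles mark the 12 genes and the violet diamond the 1 TE that edgeR called, and orange points mark features called by DESeq2 only, most of them above 0.

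The targeted genes checked the labels first. SUVH9, on chromosome 4 at 7823894 to 7827004, stood at 13.4 and 6.54 CPM in WT and at 0 and 0.059 CPM in the triple mutant, where 1 read was counted. The ratio of WT to triple mutant was 328, with a 95% interval from counting error of 58.5 to 12998 (fitted log2 fold change −8.19 ± 0.78, adjusted p = 0.00361). SUVH9 was thus near 0 in both triple mutant libraries, as in suvh2suvh9 at 0.051 and 0 CPM. SUVH2, on chromosome 2 at 14108529 to 14112464, fell from 41.5 and 38.4 CPM to 11.2 and 8.92 CPM (−2.11 ± 0.25, adjusted p = 0.00639). POL2A, on chromosome 1 at 2588854 to 2606892, fell from 236 and 165 CPM to 65.6 and 67.7 CPM (−1.71 ± 0.20, adjusted p = 0.00639). In neither gene did the groups overlap, yet both kept transcripts, and counts over a whole gene do not show which part of it was read. The calls of POL2A and SUVH2 were lost without triple mutant replicate 2, each at an adjusted p of 0.14. POL2A stood at 89.8 and 89.5 CPM in meiocytes titled pol2a-1 and at 155 and 156 CPM in those titled pol2a-2.

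Around POL2A, AT1G08270 fell and PSAO rose. AT1G08270, annotated as a vacuolar protein sorting-associated protein, lies on the opposite strand at 2606269 to 2607507 and shares 36.4% of its exon length with POL2A. It stood at 101 and 68.6 CPM in WT and at 9.1 and 16.1 CPM in the triple mutant, a mean of 84.8 ± 23.0 against 12.6 ± 4.92 CPM (SD). The fall was 7.36-fold (−2.88 ± 0.35, adjusted p = 0.00639) and was called under every left-out library. It was at 19.6 and 17.9 CPM in meiocytes titled pol2a-1, at 72.8 and 86.9 CPM in those titled pol2a-2 and at 47.3 and 84.3 CPM in suvh2suvh9. The library kit does not keep the strand, so reads of the shared exons cannot be assigned to POL2A or to AT1G08270.

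PSAO encodes subunit O of photosystem I and lies 33.9 kb beyond the end of POL2A. It stood at 10.4 and 10.5 CPM in WT and at 54.2 and 42.2 CPM in the triple mutant, with both triple mutant libraries above all 8 other meiocyte libraries. The rise was 4.22-fold (2.08 ± 0.24, adjusted p = 0.00639), and it was lost without WT replicate 1 (adjusted p = 0.0543). The nuclear photosynthesis genes whose sums are given above moved the same way as PSAO, and their part in its rise was not tested. Of the 45 genes tested within 100 kb of POL2A, AT1G08270 was called lower and PSAO higher, beside 0.0203% and 0.0405% of all tested genes. The median log2 fold change of the 45 was −0.12. By edgeR none of the 45 genes tested around SUVH2 and none of the 22 around SUVH9 was called. Around POL2A DESeq2 called 1 gene higher, PSAO, and 1 lower, AT1G08270, beside 2.16% and 0.466% of all tested genes. DESeq2 called none around SUVH9 and 3 higher around SUVH2, beside the same 2.16%: RD20 (adjusted p = 0.00489), AT2G33170 (0.0273) and AT2G33350 (0.0409).

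**Figure D2:**
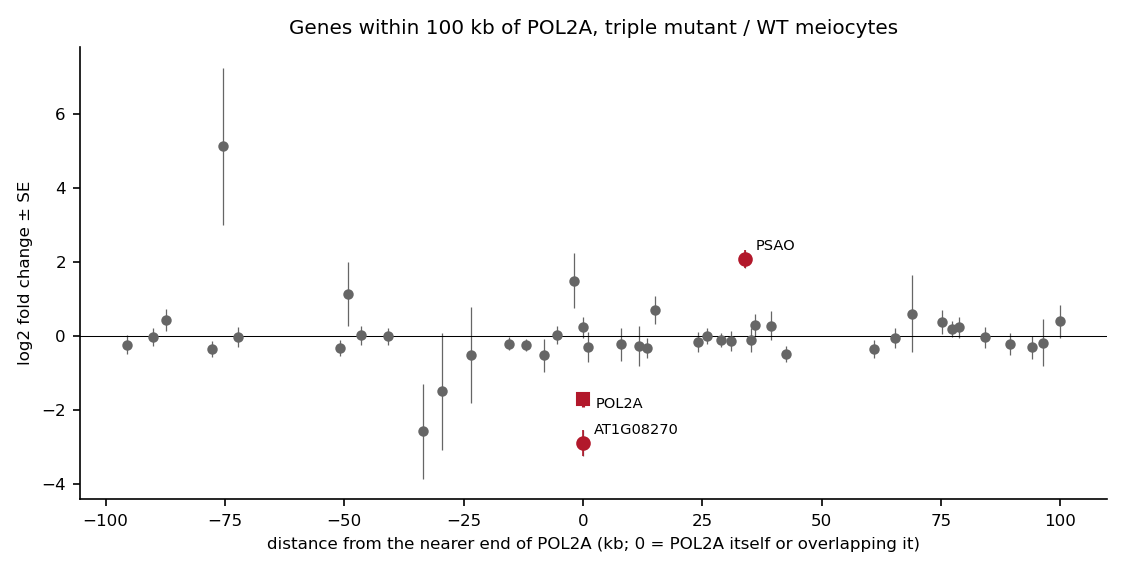
Log2 fold change ± SE of genes within 100 kb of POL2A (vertical axis) by the distance from the nearer end of POL2A in kb (horizontal axis, negative towards lower coordinates). Called genes are red: POL2A (square) at −1.71, AT1G08270 at −2.88 and PSAO at 2.08, while the other genes are grey and were not called.

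Among the genes that rose, LTP6, PERK13 and AGP31 encode proteins of the cell surface. Their upstream sequences, the 250 bases before the annotated transcript start of each, are shown as examples for these proteins, and no other gene is annotated in these stretches. The stretches of AT3G02640, AIR12 and ABCA10 hold no other gene either and are not shown. They are read on the gene's strand from the RefSeq genome TAIR10.1, at chr3:2664889-2665138 on the minus strand for LTP6, chr1:26555455-26555704 on the plus strand for PERK13 and chr1:9891016-9891265 on the minus strand for AGP31.
LTP6: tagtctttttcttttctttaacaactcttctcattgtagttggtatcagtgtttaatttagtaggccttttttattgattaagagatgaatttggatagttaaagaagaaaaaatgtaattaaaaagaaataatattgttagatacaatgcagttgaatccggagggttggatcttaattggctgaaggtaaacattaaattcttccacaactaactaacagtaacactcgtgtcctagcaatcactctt
PERK13: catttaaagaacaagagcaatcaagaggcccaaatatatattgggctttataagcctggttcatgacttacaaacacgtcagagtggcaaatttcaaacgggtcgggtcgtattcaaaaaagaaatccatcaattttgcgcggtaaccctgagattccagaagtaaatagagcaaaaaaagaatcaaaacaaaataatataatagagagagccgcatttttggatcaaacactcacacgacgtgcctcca
AGP31: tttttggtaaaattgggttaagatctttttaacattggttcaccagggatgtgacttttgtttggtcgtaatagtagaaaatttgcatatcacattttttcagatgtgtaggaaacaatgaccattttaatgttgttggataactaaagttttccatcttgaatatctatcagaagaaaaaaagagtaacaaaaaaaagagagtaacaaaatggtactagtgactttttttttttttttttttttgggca
No letter is in capitals because none of the motifs searched occurs in these 3 stretches. The TATA box letters TATAAA on the gene's strand occur in 1 of the 8 upstream stretches of genes that rose, that of PSAO at 52 bases before the start, and in 32.9% of 27443 such stretches. The G-box CACGTG occurs in none of the 8 and in 6.49% of all, and the W-box core TTGACC in none and in 12.2%, both searched on both strands.

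LTP6 is a lipid transfer protein, a class of small secreted proteins that carry lipids at the cell surface. It stood at 20.0 and 21.6 CPM in WT and at 113 and 93.3 CPM in the triple mutant, which lay above all 8 other meiocyte libraries. The mean went from 20.8 ± 1.13 to 103 ± 13.7 CPM (SD), a 4.53-fold rise (2.18 ± 0.23, adjusted p = 0.00639) called under every left-out library. Its level was also above both WT libraries in pol2a-1, at 70.0 and 78.6 CPM, and in suvh2suvh9, at 45.0 and 45.9 CPM. Of the 8 lipid transfer genes found, 4 were tested and 1 was called. DESeq2 called 2 higher, LTP6 and LTP1, beside 2.16% of all tested genes. LTP1, which marks the epidermis, stood at 10.2 and 5.06 CPM in WT and at 21.7 and 25.6 CPM in the triple mutant (adjusted p = 0.141, DESeq2 0.00524). LTP2, at 0.712 and 0.478 against 0.406 and 0.295 CPM, was low in all 4 libraries. Of 7 epidermis markers 6 had both triple mutant libraries above both WT libraries, a pattern seen in 35.7% of tested genes, DESeq2 called LTP1 of them, and their sum was 98.4 and 44.2 CPM in WT and 120 and 138 CPM in the triple mutant.

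PERK13 is a receptor kinase of the proline-rich extensin-like family, annotated as root hair specific 10. It stood at 3.32 and 4.06 CPM in WT and at 36.4 and 27.1 CPM in the triple mutant, so both triple mutant libraries lay above all other meiocyte libraries. The rise was 7.83-fold (2.97 ± 0.34, adjusted p = 0.00639), and it was lost without WT replicate 1 (adjusted p = 0.0543). PERK13 stood at 2.24 and 2.37 CPM in suvh2suvh9, near WT, and at 17.2 and 13.4 CPM in pol2a-1. Of 14 kinases of the family found, 11 were tested, 1 was called, and the median log2 fold change was 0.32 against 0.02 over all tested genes. PERK12, at 21.0 and 17.9 against 35.5 and 30.3 CPM, and PERK10, at 26.6 and 25.7 against 24.1 and 21.8 CPM, were not called.

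AGP31 is an arabinogalactan protein, one of the heavily glycosylated proteins of the cell wall. It stood at 4.98 and 5.44 CPM in WT and at 28.9 and 23.4 CPM in the triple mutant, with no overlap. The rise was 4.58-fold (2.20 ± 0.34, adjusted p = 0.0498), close to the threshold, and was lost without any 1 of the 6 libraries of WT, pol2a-1 or the triple mutant. The 50 arabinogalactan and fasciclin-like genes went both ways: of 38 tested 1 was called higher and none lower. DESeq2 called 4 higher and 3 lower, beside 2.16% and 0.466% of all tested genes. AGP6, a pollen arabinogalactan protein, stood at 4.09 and 13.0 CPM in WT and at 0.232 and 0 CPM in the triple mutant (DESeq2 adjusted p = 0.0484, edgeR 0.141). AGP11, its close relative in pollen, stood at 3.62 and 17.3 against 1.39 and 0.413 CPM (DESeq2 adjusted p = 0.0106, edgeR 0.178). The replicates of WT differed widely in both pollen genes.

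ABCA10 belongs to the A family of ABC transporters, membrane proteins that move lipids in eukaryotes. It stood at 0.415 and 0.621 CPM in WT, which were 7 and 13 counts, and at 7.42 and 13.8 CPM in the triple mutant. The rise was 18.2-fold (4.19 ± 0.65, adjusted p = 0.0498) with no overlap of the groups, although a pol2a-2 library reached 13.7 CPM. Of 12 family members 7 were tested and 1 called, with a median log2 fold change of 3.72, or 2.81 with a member at 0 in WT set to its lower bound. ABCA7 stood at 9.78 and 15.8 CPM in WT and at 41.4 and 48.4 CPM in the triple mutant (1.67 ± 0.30, adjusted p = 0.0822, DESeq2 1.4e-04). ABCA1, at 74.2 and 60.1 against 52.7 and 45.4 CPM, lay the other way and was not called. The call of ABCA10 was lost without any 1 of the WT and pol2a-1 libraries or without triple mutant replicate 2.

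THI2.1 encodes a thionin, an antimicrobial peptide known to be induced by jasmonate. It stood at 1.9 and 1.58 CPM in WT and at 11.2 CPM in both triple mutant libraries, a 5.91-fold rise (2.56 ± 0.40, adjusted p = 0.0498). In suvh2suvh9 it was at 10.7 and 12.9 CPM, and in pol2a-1 at 4.72 and 4.46 CPM. The call was lost without any 1 of the WT, pol2a-1 and triple mutant libraries. Of 7 jasmonate and wound genes all were tested, none was called by edgeR and the median log2 fold change was 1.76. DESeq2 called 2 higher, beside 2.16% of all tested genes. LOX2, a lipoxygenase of jasmonate synthesis, stood at 1.84 and 1.43 CPM in WT and at 7.19 and 13.8 CPM in the triple mutant (adjusted p = 0.105, DESeq2 0.00128). AOS, which acts after it in the same synthesis, stood at 3.97 and 4.63 against 6.38 and 4.96 CPM (adjusted p = 0.864). Of the 15 immune genes, THI2.1 among them, 8 were tested, and the salicylate response gene PR1 had no counts in the 4 libraries.

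AIR12, annotated as an auxin-induced in root cultures-like protein, stood at 15.7 and 12.3 CPM in WT and at 49.0 and 62.0 CPM in the triple mutant. The rise was 3.62-fold (1.86 ± 0.27, adjusted p = 0.0373), and suvh2suvh9 stood at 44.2 and 44.6 CPM. AT3G02640, an uncharacterized protein, stood at 1.6 and 1.72 CPM in WT and at 12.2 and 14.9 CPM in the triple mutant, a 7.43-fold rise (2.89 ± 0.39, adjusted p = 0.0199). In both genes the triple mutant libraries lay above all 8 other meiocyte libraries. The call of AIR12 was lost without any 1 of 5 libraries, those of WT and pol2a-1 and triple mutant replicate 2, and that of AT3G02640 without any 1 of 3, those of WT and triple mutant replicate 2.

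**Figure D3:**
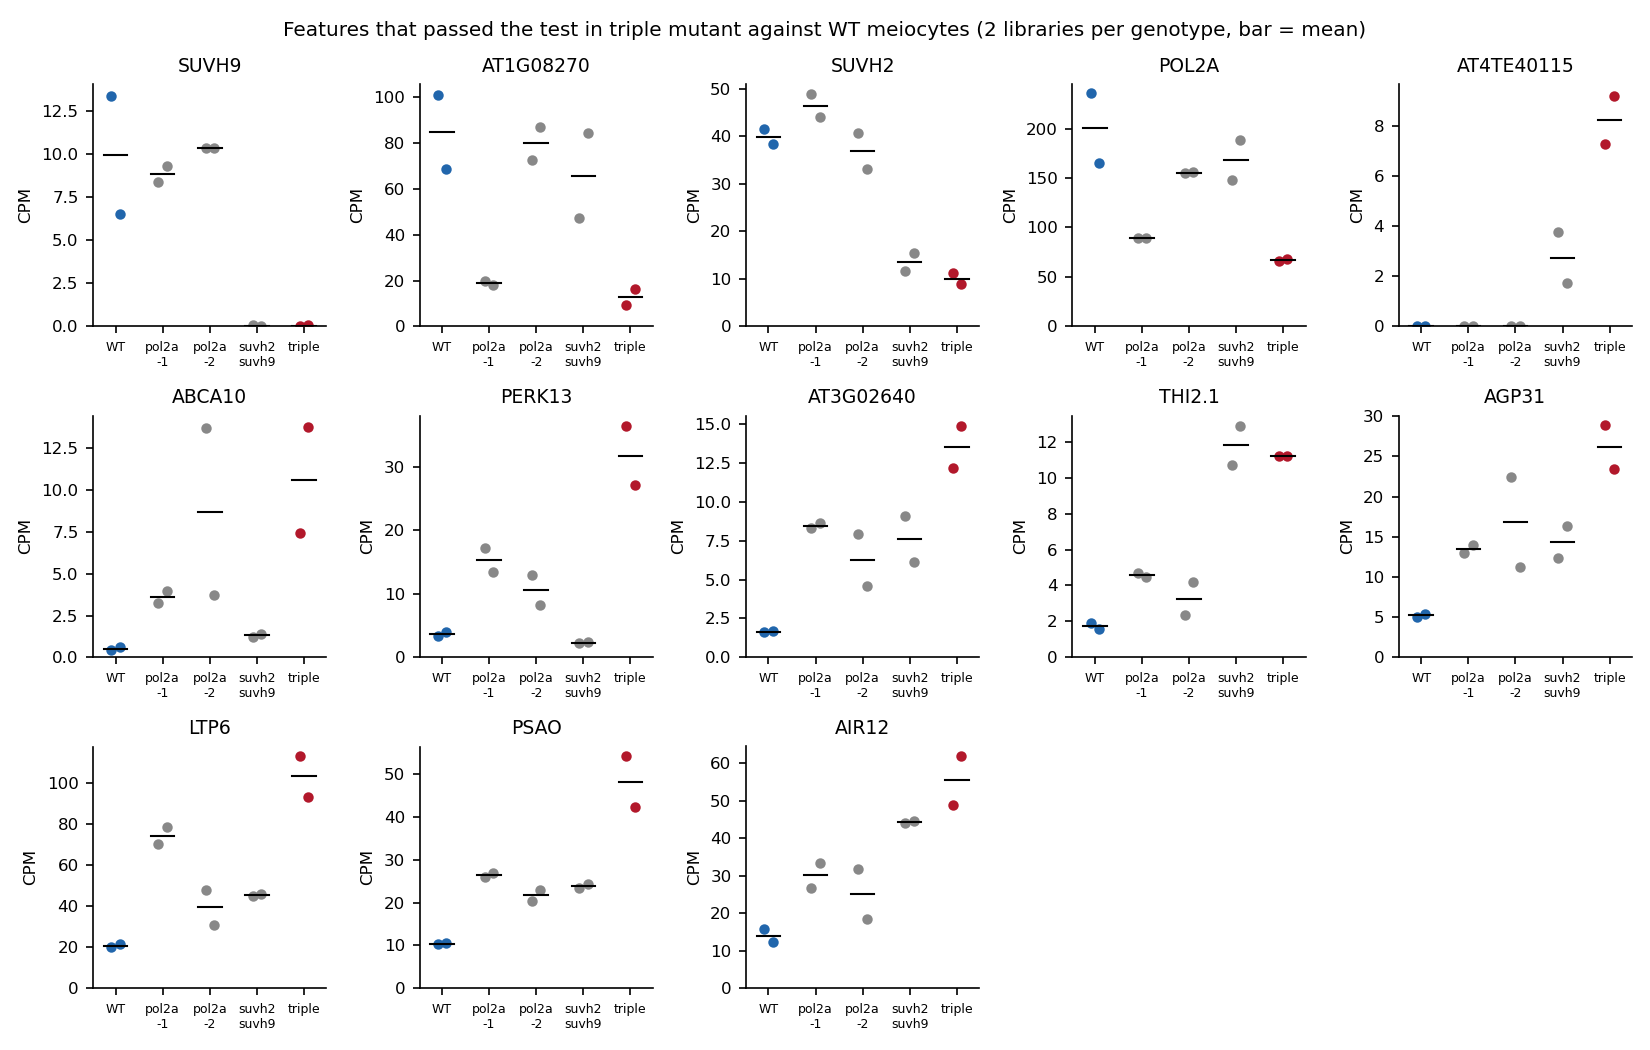
CPM (vertical axes, each starting at 0) of the 13 features that passed the test, in each of the 10 meiocyte libraries, with points for libraries and bars for the mean of the 2 libraries of a genotype. Triple mutant points (red) lie clear of WT points (blue) in every panel, and AT4TE40115 is at 0 in WT, pol2a-1 and pol2a-2.

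The TE that rose was AT4TE40115, 218 bases long. It had no counts in either WT library and 126 and 156 counts in the triple mutant, 7.31 and 9.21 CPM, at least 104-fold higher against a floor of 3 counts over the WT group (adjusted p = 0.0373). It was also at 0 in all 4 pol2a-1 and pol2a-2 libraries and at 3.78 and 1.72 CPM in suvh2suvh9. Meiocyte libraries without the SUVH2 and SUVH9 mutations thus had no counts of it. In seedlings it was again at 0 in both WT libraries, with 16 and 7 counts in suvh2suvh9 seedlings and 43 and 29 in those of the triple mutant. The call was lost without either WT replicate (adjusted p = 0.0612 and 0.0842) or without triple mutant replicate 2 (0.14).

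Other TEs did not pass the test with edgeR. AT4TE12760 had 0 counts in WT and 92 and 89 in the triple mutant, 5.33 and 5.26 CPM, at least 66.7-fold higher (adjusted p = 0.0822, DESeq2 2.2e-04), and stood at 0.612 and 0.772 CPM in suvh2suvh9. AT3TE24795 stood at 1.01 and 1.05 CPM in WT and at 8.64 and 9.8 CPM in the triple mutant (adjusted p = 0.054). AT3TE16315 stood at 12.8 and 7.74 against 42.1 and 41.0 CPM (adjusted p = 0.057). Among TEs with lower levels, AT1TE22850 went from 44.7 and 39.4 CPM to 14.0 and 19.2 CPM (adjusted p = 0.164), and it stood at 11.1 and 11.3 CPM in pol2a-1.

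The summed level of all 31189 TEs was 12172 and 10287 CPM in WT and 10585 and 11057 CPM in the triple mutant, so the groups overlapped. Both triple mutant libraries lay above both WT libraries for 25.4% of tested TEs and below for 17.2%. By length, log2 fold changes had a median of −0.15 over the 1020 tested TEs under 500 bases, 0.16 over the 340 from 500 to under 2000 bases and 0.19 over the 115 of 2000 or more bases. At an unadjusted p under 0.05 the longest class held 15 higher and 5 lower TEs and the shortest 32 higher and 61 lower. Over all tested TEs the shares were 5.08% higher and 5.15% lower. Genes also differed by length, the other way, with medians of 0.16 under 1000 bases, 0.02 from 1000 to under 4000 bases and −0.27 at 4000 or more. Where a TE lies inside or beside a gene its counts may hold reads of that gene, and TE positions were not analysed here.

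Some features were at 0 in WT and had counts in the triple mutant. Of the genes, 113 had 0 counts in both WT libraries and at least 10 in both triple mutant libraries, and 4 had the reverse, and of TEs 15 and 3. Of the 113 genes, 3 also had at least 10 counts in both suvh2suvh9 libraries and 9 in both pol2a-1 libraries. For TEs these were 4 and 0 of the 15. Most had some counts in other mutants, and 8 of the 113 genes and none of the 15 TEs were at 0 in all suvh2suvh9 and pol2a-1 meiocyte libraries. Counted against WT in the same way, the other mutants had 55 such genes in pol2a-1, 64 in pol2a-2 and 11 in suvh2suvh9. The reverse held for 5, 10 and 74 genes in the same order, so suvh2suvh9 went the other way. Low genes switched within a group as well: 231 and 204 genes were at 0 in 1 WT replicate and at 10 or more in the other, and 156 and 265 in the triple mutant. WT libraries also had counts for 21578 and 22145 features, against 24376 and 23700 in the triple mutant, at similar totals.

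The 2 TEs with the highest levels among features at 0 in WT, AT4TE40115 and AT4TE12760, are given above, and the 3 genes that follow were named after their values were seen. AT1G20120 had 47 and 120 counts in the triple mutant, at least 61.6-fold higher (adjusted p = 0.105, DESeq2 2.5e-04). AT2G43620 had 56 and 101 counts, at least 57.9-fold higher (adjusted p = 0.0637, DESeq2 1.5e-04). AT4G08190 had 74 and 82 counts, at least 57.5-fold higher, and was called by neither tool (adjusted p = 0.125, DESeq2 0.106). It had 9 and 43 counts in suvh2suvh9 and none in pol2a-1 and pol2a-2. The first pair had counts in pol2a-1 meiocytes too, AT1G20120 40 and 41 and AT2G43620 14 and 57. In the other direction AT1G25240 had 43 and 71 counts in WT and none in the triple mutant or in suvh2suvh9, at least 34.4-fold lower (adjusted p = 0.178, DESeq2 0.0113). The gene scpl38 stood at 4.74 and 6.97 CPM in WT and at 0.232 and 0 CPM in the triple mutant (adjusted p = 0.125, DESeq2 3.3e-04), and at 0 and 0.297 CPM in suvh2suvh9.

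None of the 47 meiosis genes tested was called. Medians of log2 fold change were −0.10 for 7 genes of break formation, 0.17 for 4 of strand exchange, −0.32 for 10 of the chromosome axis and synapsis, −0.22 for 16 of crossover formation and 0.02 for 10 of the divisions, against 0.02 over all genes. ASY1, an axis protein, stood at 1165 and 867 CPM in WT and at 859 and 899 CPM in the triple mutant (−0.34 ± 0.20, adjusted p = 0.438). MSH5, which stabilises crossover intermediates, stood at 511 and 455 against 404 and 414 CPM (−0.37 ± 0.16, adjusted p = 0.304). DESeq2 called 3 of the 47 lower, beside 0.466% of all tested genes. RCK, a crossover helicase, stood at 365 and 317 against 252 and 230 CPM (adjusted p = 0.0243). SYN1, the meiotic cohesin, stood at 268 and 183 against 142 and 146 CPM (adjusted p = 0.0191) and SMC3, another cohesin subunit, at 252 and 200 against 155 and 141 CPM (adjusted p = 0.0472). Here and below, members named for a DESeq2 call were chosen after their values were seen.

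Replication and damage genes other than the targeted POL2A were not called either. The median log2 fold change over the 24 replication genes was −0.17, and POLD1, the catalytic subunit of DNA polymerase delta, stood at 197 and 195 CPM in WT and at 191 and 202 CPM in the triple mutant. Of 26 damage response genes 24 were tested, with a median of −0.10, and DESeq2 called 3 higher, beside 2.16% of all tested genes. TSO2, a ribonucleotide reductase subunit that supplies nucleotides, stood at 119 and 134 CPM in WT and at 260 and 268 CPM in the triple mutant (0.93 ± 0.19, adjusted p = 0.121, DESeq2 0.00369). BRCA1, a repair gene, stood at 20.5 and 21.7 against 44.4 and 38.2 CPM (DESeq2 adjusted p = 0.029). SMR7, a cell cycle inhibitor induced by DNA damage, stood at 0.178 and 0 against 2.67 and 3.31 CPM (DESeq2 adjusted p = 0.0126). ATM, the kinase that signals breaks, lay the other way at 389 and 198 against 153 and 200 CPM, with overlapping groups.

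Genes of RNA-directed DNA methylation outside the targeted pair were not called. Log2 fold changes had a median of −0.23 over the 7 genes of small RNA production and −0.28 over the 14 that act at the target. NRPD2, the subunit shared by polymerases IV and V, stood at 258 and 237 CPM in WT and at 174 and 186 CPM in the triple mutant (adjusted p = 0.232). Of the 14 genes of maintenance methylation none was called by edgeR. DESeq2 called 1 lower, beside 0.466% of all tested genes: ROS1, a DNA demethylase, at 16.7 and 21.2 against 9.1 and 9.45 CPM (adjusted p = 0.0342). Of 5 genes known to be silenced by methylation 3 were tested. SDC was at 0.178 and 0 CPM in WT and at 2.2 and 1.06 CPM in the triple mutant (adjusted p = 0.192, DESeq2 0.037), and another gene overlaps 80.2% of its exons. FWA was at 0 and 0.191 against 0.406 and 0.709 CPM, too low to tell at this depth.

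Targets of Polycomb repression and flowering genes lay mostly above WT. Of 21 genes 16 were tested, none was called by edgeR, and the median log2 fold change was 1.44. DESeq2 called 4 higher, beside 2.16% of all tested genes. Both triple mutant libraries were above both WT libraries for 14 of the 16 tested, beside 35.7% of all tested genes, and below for none, beside 14.3%. SEP3, a MADS-box factor of flower organs, stood at 9.72 and 3.29 CPM in WT and at 21.5 and 19.6 CPM in the triple mutant (adjusted p = 0.175, DESeq2 0.0201). AP3, which sets petal and stamen identity, stood at 10.0 and 7.93 against 18.7 and 22.9 CPM (adjusted p = 0.183, DESeq2 0.0397). FT and STK had no counts in the 4 libraries. The summed level of the 21 genes was 76 and 45.8 CPM in WT and 142 and 139 CPM in the triple mutant. The other mutants also lay above WT, at 101 and 102 CPM in suvh2suvh9, 82 and 114 CPM in pol2a-1 and 118 and 111 CPM in pol2a-2. Many of the listed flowering genes are known from floral organs around the meiocytes, and the tapetum and epidermis sums moved the same way. Their part in this pattern was not tested.

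No listed marker of other cells was called by edgeR, and PSAO, which was called, is not among the 18 photosynthesis genes listed. Summed levels lay above WT for photosynthesis and tapetum and below WT for pollen. The other mutants shared part of this. Tapetum sums were 805 and 473 CPM in suvh2suvh9, 357 and 476 CPM in pol2a-1 and 674 and 362 CPM in pol2a-2. Pollen sums were 4.69 and 10.8, 48.8 and 29, and 61.2 and 15.4 CPM in the same order, and photosynthesis sums 840 and 1003, 913 and 852, and 1128 and 1179 CPM. Of the 18 photosynthesis genes DESeq2 called 10 higher, beside 2.16% of all tested genes. Both triple mutant libraries lay above both WT libraries for 13 of the 18, beside 35.7% of all tested genes, and the median log2 fold change was 1.18. LHCB1.3, a chlorophyll-binding protein, stood at 233 and 101 CPM in WT and at 689 and 389 CPM in the triple mutant (adjusted p = 0.125, DESeq2 7.2e-04). Triple mutant replicate 1 was the highest of the 4 libraries in this sum, and none of the 18 was at 0. Of the 19 tapetum genes DESeq2 called 6 higher, beside the same 2.16%, and 15 lay above WT in the same way. The median was 0.96, while LAP6 and BHLH010, at −0.10 and −0.05, did not differ beyond their SE of 0.35 and 0.32. MS1 and MYB80, transcription factors of the late tapetum, were at 0 in both WT libraries and at 0.58 and 0.59 and at 0.696 and 1.36 CPM in the triple mutant. A6, a secreted tapetum protein, stood at 91.7 and 144 against 245 and 295 CPM (adjusted p = 0.255). Of the 7 pollen genes 6 were tested and DESeq2 called 2 lower, beside 0.466% of all tested genes. The median was −2.78, although HAP2, a gamete fusion protein, lay the other way at 0.889 and 1.72 against 5.68 and 3.13 CPM (adjusted p = 0.304). VGD1, a pectin methylesterase of pollen tubes, stood at 32.1 and 57.1 against 15.5 and 0.709 CPM (adjusted p = 0.305).

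**Figure D4:**
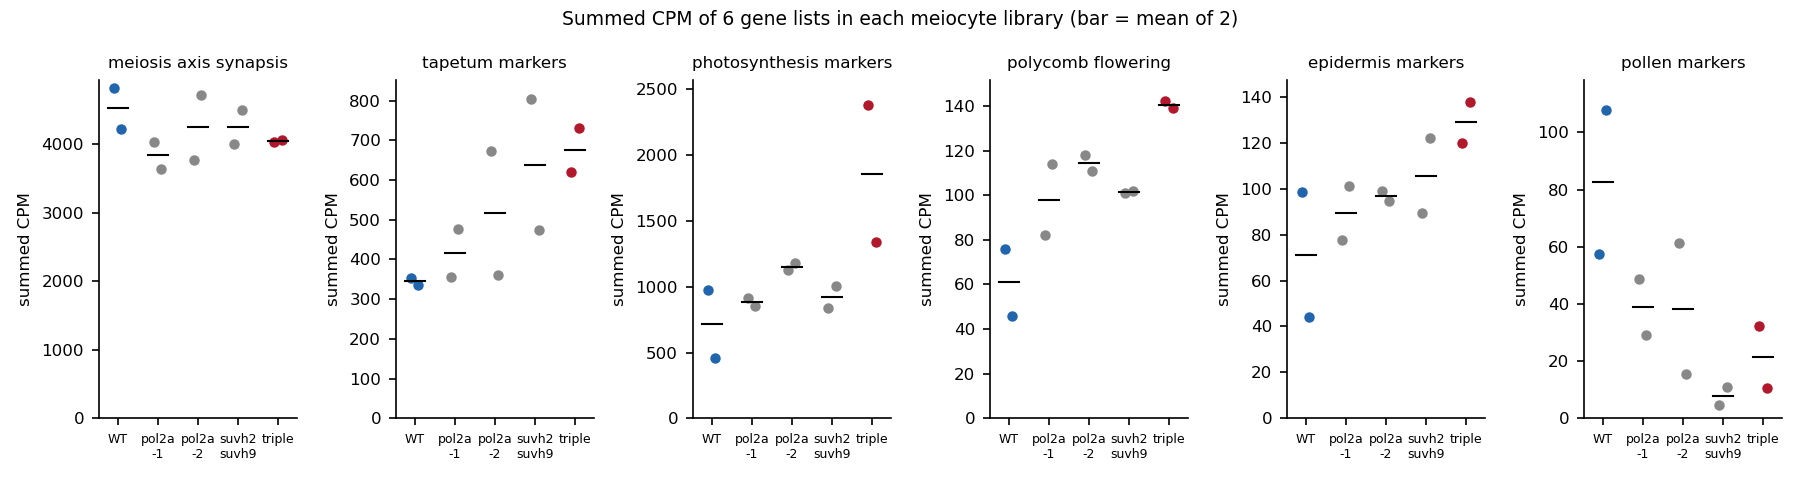
Summed CPM (vertical axes, each starting at 0) of 6 gene lists in each of the 10 meiocyte libraries, with points for libraries and bars for the mean of 2. The tapetum, photosynthesis, flowering and epidermis sums of both triple mutant libraries (red) lie above both WT libraries (blue) and the pollen sums lie below.

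Wall families other than those above held no gene called by edgeR. Of 12 tested expansins, which loosen walls, the median log2 fold change was 0.85 against 0.02 over all tested genes. DESeq2 called 1 of them higher, beside 2.16% of all tested genes: EXPA6, at 4.33 and 7.78 against 19.5 and 17.5 CPM (adjusted p = 0.0453). Of 14 tested xyloglucan endotransglucosylases the median was 0.75, and XTH9 stood at 45.7 and 43.5 against 90.0 and 80.4 CPM (adjusted p = 0.246). The 9 tested cellulose synthases had a median of −0.27, and the 12 tested pectin methylesterases 0.64. Of these methylesterases DESeq2 called 1 higher, beside the same 2.16%: PME5, at 2.85 and 1.48 against 8.23 and 11.6 CPM (adjusted p = 0.0328). Of 6 tested heat genes none was called, and HSP90.1 stood at 327 and 499 against 430 and 480 CPM.

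**Figure D5:**
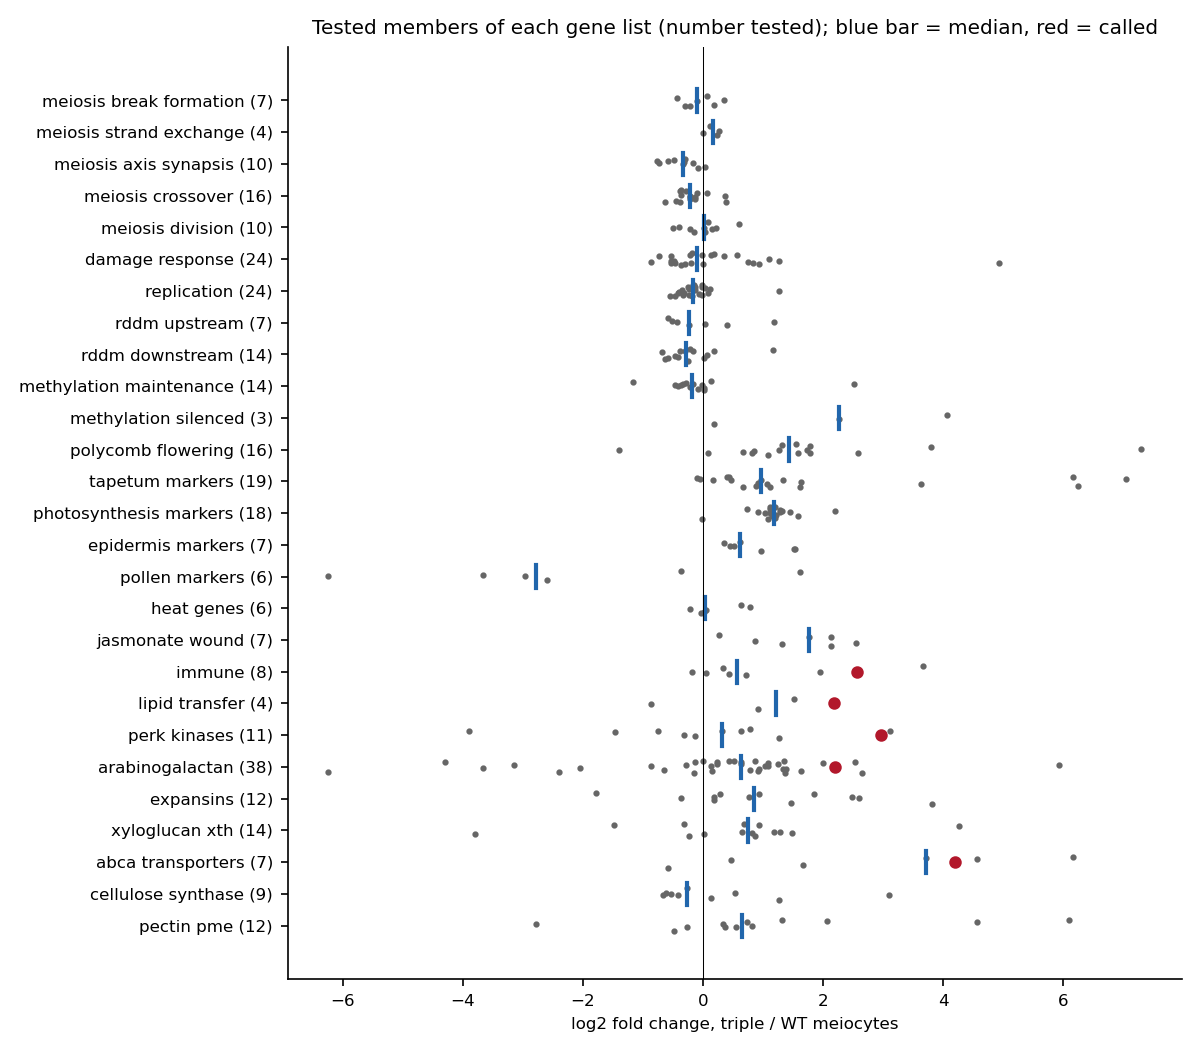
Log2 fold change of the triple mutant against WT meiocytes (horizontal axis) for each tested member of the gene lists (rows, with the number tested), where grey points were not called, red points were called and blue bars mark the median. The meiosis, replication and methylation machinery medians lie between −0.32 and 0.17, photosynthesis, tapetum and flowering medians between 0.96 and 1.44, and the pollen median at −2.78.

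Set against the mutants that carry part of the combination, few of these features differed. Of the 13 called against WT, 3 were called against suvh2suvh9 and 3 against pol2a-1, comparisons that share the triple mutant libraries with that against WT. Against suvh2suvh9 8 features were called, 0.0377% of 21214, with 6 genes higher (0.0304%) and 2 lower (0.0101%). PERK13 was higher by 3.66 ± 0.36 (adjusted p = 0.00503) while AT1G08270 and POL2A were lower by −2.51 ± 0.34 and −1.46 ± 0.20 (adjusted p = 0.027 and 0.0274). The remaining 5 were organellar: 4 chloroplast genes and 1 mitochondrial gene, higher by 2.36 to 3.15. Chloroplast reads made up 0.0126% and 0.02% of the suvh2suvh9 libraries and 0.04% and 0.0332% of the triple mutant's, and their part in these calls was not tested.

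Against pol2a-1 151 features were called, 0.712%, with 40 genes (0.203%) and 15 TEs (1.02%) higher and 87 genes (0.441%) and 9 TEs (0.61%) lower. SUVH2 and SUVH9 were lower by −2.34 ± 0.25 and −8.04 ± 0.78 (adjusted p = 4.6e-04 and 1.6e-04), and AT4TE40115 was higher (adjusted p = 0.00464). LTP6, which rose against WT, was higher by 0.33 ± 0.22 than in pol2a-1 (adjusted p = 0.508). THI2.1 and AIR12 differed from suvh2suvh9 by −0.19 ± 0.37 and 0.20 ± 0.26 (adjusted p = 0.892 and 0.834). For 8 of the 9 features that rose, both suvh2suvh9 libraries lay above both WT libraries, the exception being PERK13, and for 8 of 9 both pol2a-1 libraries did, the exception being AT4TE40115. For 7 of the 9 the triple mutant libraries lay above all 8 other meiocyte libraries, and the exceptions were ABCA10 and THI2.1. The 9 features were chosen for low levels in these WT libraries and high levels in these triple mutant libraries, which favours such patterns. No share over all tested features is given, so these counts only describe the 9.

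The effect of the triple mutant differed between meiocytes and seedlings for 911 of 24418 features, 3.73%, in the fit of all 20 libraries. More positive in meiocytes were 642 genes (2.88%) and 22 TEs (1.05%), more negative 229 genes (1.03%) and 18 TEs (0.855%). This included 10 of the 13 features called in meiocytes. The 13 were chosen for a difference between the same meiocyte libraries that enter this test, which favours such an overlap. The count therefore only describes the 13. PSAO stood at 3100 and 2893 CPM in WT seedlings and at 2304 and 2219 CPM in triple mutant seedlings, lower in place of higher (difference of log2 effects 2.44 ± 0.30, adjusted p = 2.2e-04). THI2.1 was at 2.26 and 1.19 CPM in WT seedlings and at 0.0722 and 0 CPM in triple mutant seedlings (7.82 ± 1.12, adjusted p = 9.5e-04). POL2A was at 47.2 and 41.1 against 36.3 and 39.6 CPM in seedlings, a smaller difference than in meiocytes (−1.52 ± 0.35, adjusted p = 0.0243). SUVH2 and SUVH9 did not pass this test (adjusted p = 0.118 and 0.168). For AT4TE40115, at 0 in WT of both tissues, the test could not compare the effects, since neither has a WT level to start from. The seedling libraries also differed in chloroplast reads, at 2.21% and 2.11% of WT and 0.0215% and 0.0443% of the triple mutant. In meiocytes these shares were 0.042% and 0.029% against 0.04% and 0.0332%. With organellar genes left out 824 features were called. The part of this library difference in the calls was not tested.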

How the data were processed

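The authors deposited raw counts per gene or TE, and cutadapt 3.4, STAR 2.7.9a, featureCounts 2.0.0, DESeq2 1.30.1 and TAIR10 are named per the submitters' processing notes. Poly(A) RNA was made into libraries with a TruSeq kit, version 2, per the labels' protocols. TE counts depend on how featureCounts treated strand, multiple hits and overlaps, settings not given in the sources used here. Each deposited count file holds 58844 features.

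Counts of the 10 meiocyte libraries were fitted in R 4.3.3 with edgeR 4.0.16 (filterByExpr, minimum count 10, leaving 21214 features; TMM scaling; two-sided quasi-likelihood F test; Benjamini-Hochberg adjustment over genes and TEs together), with a coefficient per genotype. The tissue difference came from a fit of all 20 libraries. DESeq2 1.42.0 was an alternative, and the edgeR fit was tested on simulated data. CPM were computed from library totals. Nothing in the labels says that replicates came from separate plants, so p-values reflect only how these samples vary, and an exact permutation of 2 against 2 cannot go below 0.33. Folds against 0 use a floor of 3 counts over the group, and such floors, like intervals, hold counting error only.

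Members, lists and tests were chosen with earlier results of these data known, and the symbol patterns of the ABCA and cellulose synthase lists were narrowed after the files were seen. Named were the targeted genes, called features, the 10 highest and 10 lowest further DESeq2 calls with at least 1 CPM and no overlap (some only counted here), up to 4 members per list by level and 5 TEs per direction by p. Coordinates are of the RefSeq annotation of TAIR10.1, whose exon lengths equalled the deposited ones for 99.4% of 27445 genes. Of 131 named genes, 17 had over 10% of their exons overlapped by another gene.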

Additional observations from a re-analysis of the deposited data

Results flagged for a closer look

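The effect of the triple mutant (log2 fold change against WT) differed between meiocytes and seedlings for 26 of the features named by rule. These are calls of edgeR's test for the tissue difference, which held for 911 of all 24418 features, 3.73%. Called features, DESeq2 calls and TEs were named for a difference between the same meiocyte libraries, which favours such calls. The count of 26 therefore only describes the named features. Values here are the effect in meiocytes minus that in seedlings. Among features called in meiocytes it was more positive in meiocytes for THI2.1 (7.82), ABCA10 (5.76), AGP31 (2.66), PERK13 (2.50), PSAO (2.44), AIR12 (2.18), AT3G02640 (1.70) and LTP6 (1.38), and more negative for AT1G08270 (−2.53) and POL2A (−1.52). LTP6 stood at 58.3 and 56.1 CPM in WT seedlings and at 118 and 75.1 CPM in triple mutant seedlings, and AT3G02640 at 18.5 and 18.9 against 43.3 and 39.4 CPM, so both were higher in both tissues. WT and triple mutant seedling libraries differed in chloroplast reads, as given above, and the part of this in the differences listed here was not tested.

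AP3 (4.73), LOX2 (3.44), AT3TE16315 (3.51) and LHCB1.3 (1.84) were also more positive in meiocytes. For EDA36 (10.33), AT2G43620 (10.18), AT1G20120 (9.42) and ALS3 (8.84), which were at 0 in WT meiocytes, and for scpl38 (−10.83), at 0 in WT seedlings, the fitted values are not bounds and their size depends on the prior count. The difference was also negative for AT2G05230 (−6.75), MRD1 (−5.25), AT2TE26845 (−4.39), LTP2 (−3.21), TSO2 (−1.42), RCK (−1.31) and MORC6 (−1.04). TSO2 was higher in both tissues, at 55.2 and 59.4 CPM in WT seedlings and 309 and 256 CPM in triple mutant seedlings. LTP2 stood at 7.05 and 7.64 against 37.5 and 35.7 CPM in seedlings and was low in meiocytes. Sequence found elsewhere in the genome makes up most of AT2G05230, and 89.8% of the exons of MRD1 are overlapped by another gene, so their counts are uncertain.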

How the results depend on the processing

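No named value called changed sign under the alternatives run, but more genes were lower than higher without WT replicate 2 (4 higher, 10 lower) and without triple mutant replicate 1 (7 and 17). The cause of the moves was not tested. Genes called higher and lower and TEs called, 8, 4 and 1, became 569, 236 and 37 without a filter, 426, 92 and 26 with the DESeq2 Wald test, 1, 0 and 0 with the 4 libraries alone, 1044, 123 and 48 with all 20 libraries in the fit and 2, 2 and 0 with pol2a-2 joined to pol2a-1. Without the pol2a-2 libraries 16 genes were higher and 3 TEs called, and with the gene length trend removed 13 and 3, of which POL2A, LTP6, PSAO, AT3G02640, AIR12 and THI2.1 were no longer part. Genes higher were 5 with DESeq2 size factors, without organellar genes and without TEs, each losing ABCA10, THI2.1 and AGP31 at adjusted p of at most 0.0533. With a replicate block no TE was called (AT4TE40115 at 0.0533). Replicate numbers did not pair the samples (correlations of replicate differences between groups −0.18 to 0.223).

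Leaving out each library gave 3 to 47 genes higher (35 and 47 when pol2a-2 replicate 1 or 2 was dropped, 28 for each suvh2suvh9 replicate, 4 for each pol2a-1 replicate and WT replicate 2, 3 for triple mutant replicate 2), 2 to 17 lower (17 for triple mutant replicate 1, 10 for WT replicate 2, 7 for pol2a-2 replicate 2, 2 for triple mutant replicate 2) and 0 to 5 TEs (5 and 4 for pol2a-2, 3 for suvh2suvh9, 0 for WT replicate 1 and triple mutant replicate 2). It gave 1 to 15 features against suvh2suvh9 (15 for pol2a-2, 4 for suvh2suvh9 replicate 2, 1 for triple mutant replicate 1) and 93 to 269 against pol2a-1 (93 and 96 for its own replicates, 96 for triple mutant replicate 2, 238 for pol2a-2 replicate 2, 265 and 269 for suvh2suvh9). For the tissue difference it gave 259 to 1388 (1388 for WT meiocyte replicate 1, 259 and 347 for the triple mutant seedlings, 306 and 416 for WT seedlings, 593 and 520 for triple mutant meiocytes).

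Against suvh2suvh9, 8 became 418 without a filter, 169 with DESeq2, 0 with only those groups, 139 with all libraries, 5 without pol2a-2, 1 without organellar genes, 1 with pol2a-2 joined and 16 with the length trend removed. Beside the 0 calls by edgeR with only those groups, an unadjusted p under 0.05 held for 1671 features above and 945 below suvh2suvh9. Against pol2a-1, 151 became 1196, 616, 3963 and 524 under the first 4 of these and 71 with pol2a-2 joined. The tissue difference, 911, became 2202, 2190 and 275 without a filter, with DESeq2 and with the length trend removed. Limits of 300 and 1000 bases put 216 tested TEs in the longest class. The filter ran over all 10 meiocyte libraries, so 330 tested features had under 10 counts in each of the 4 libraries compared, and 2 libraries per group limit every call.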
